A study of Mus musculus with 12 samples.

Results

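The 43 genes described here encode the machinery that copies DNA and the enzymes that supply its building blocks, in a mouse mesenchymal cell line sequenced before and after osteocyte differentiation. Members were the genes on a list of replication and nucleotide synthesis genes whose count exceeded 10 in 3 or more of the 12 libraries. All 43 listed genes met this rule, and all 43 held more than 10 counts in every library, so the filter removed none. The table held 56350 genes, of which 16484 passed the same filter and were tested.

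MPC2 cells, a conditionally immortalized mouse mesenchymal stem cell line derived as 1 clone, were sequenced undifferentiated (MSCs, grown at 33 °C, where the line proliferates) or after 3 weeks at 37 °C in osteogenic medium with beta-glycerophosphate and ascorbic acid (osteocytes). Each cell type received DMSO vehicle or 50 µM FG-4592 (roxadustat, an inhibitor of the prolyl hydroxylases that mark hypoxia-inducible factors for destruction) for 48 hours, with 3 libraries in each of the 4 groups. All groups came from the same line with no genetic change between them. The osteocytes differed from the MSCs in differentiation, medium and temperature at once, so the contributions of these to any difference between the cell types cannot be told apart. The labels do not say whether replicates were separate cultures, so p-values measure the spread between these libraries only, and in such bulk RNA fewer cycling cells and less RNA per cell cannot be told apart.

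Total counts ranged from 52829185 to 68108470 per library, so a limit of 3 counts corresponded to 0.0447 to 0.0545 CPM (CPM being counts scaled to library size with edgeR's TMM factors), which covers counting error only. Of the markers fixed for osteocytes, Phex reached 70 counts in MSCs and 4181 in osteocytes and Dmp1 121 and 907, but Sost was at 0 in all 12 libraries and Mepe at no more than 2 counts, so these last markers, which define mature osteocytes, were at or near 0. The 8 osteocyte markers summed to 25.4 to 31.1 CPM in MSCs on vehicle and 31.5 to 36.5 on FG-4592, and to 155 to 174 CPM in osteocytes on vehicle and 57.5 to 59.6 on FG-4592, where 4 of the 5 tested fell and 1 rose. All 5 adipocyte markers passed the test as higher in osteocytes under vehicle, with a summed level of 601 to 607 CPM in vehicle-treated MSCs and 3280 to 4090 CPM in vehicle-treated osteocytes. Their summed level was 802 to 829 CPM in FG-4592-treated MSCs and 3530 to 4120 CPM in FG-4592-treated osteocytes. The 7 mesenchymal stromal markers summed to 1430 to 1460 CPM in MSCs and 1820 to 1870 CPM in osteocytes on vehicle. On FG-4592 they summed to 1340 to 1370 and 1570 to 1620 CPM. Of the 6 tested, 3 were higher and 1 lower in osteocytes under vehicle, so this list was not higher in the cells labelled MSCs. The part of these marker levels in the values reported here was not tested. The 6 HIF target genes checked were summed to 128 to 146 CPM in MSCs and 126 to 134 CPM in osteocytes under vehicle, against 621 to 631 CPM and 1010 to 1050 CPM under FG-4592.

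Replication begins before S phase, when the origin recognition complex, Cdc6 and Cdt1 load the MCM helicase onto DNA, a step called licensing. The helicase is switched on by Cdc45, the GINS complex and Mcm10, after which primase and the replicative polymerases copy the strands, held in place by the PCNA clamp that the RFC complex loads. The reductase encoded by Rrm1 and Rrm2, thymidylate synthase and thymidine kinase supply the deoxynucleotides, and many of these genes are transcribed at the start of S phase by E2F factors, which the retinoblastoma family restrains in resting cells.

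Promoter sequence was examined because many of these genes are known E2F targets. RefSeq gave a window from 250 bases before to 50 after the transcription start (build GRCm38.p6, the same assembly as mm10) for 36 of the 43 genes. Mcm4, Gins1, Gins2, Gins4, Prim2, Pole and Rfc2 had no entry. An E2F octamer (TTTCCCGC, TTTCGCGC, TTTGCCGC or TTTGGCGC, read on both strands) was present in the windows of 13 of the 36 genes, or 36.1%, against 2.60% of the 27025 symbols with a window. By window the shares were 31.0% of 42 against 2.26% of 32851. The pentamer CCAAT, read on both strands, was in the windows of 23 of the 36 genes (63.9%) against 41.1% of all symbols. Either of the pentamers ACGTG and GCGTG, the core bound by hypoxia-inducible factors, was in 24 of the 36 (66.7%) against 46.7%. The stretches that follow show octamers before the start of 7 genes in capitals (5 licensing genes, with Pola1 and Gins3 from other role groups), and then the region before Rrm2 and Tk1, the genes with the largest differences between the cell types, in which capitals mark CCAAT.
Mcm5, chr8:75109331-75109388, plus strand: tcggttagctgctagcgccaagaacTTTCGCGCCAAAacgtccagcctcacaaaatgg
Mcm6, chr1:128359783-128359840, minus strand: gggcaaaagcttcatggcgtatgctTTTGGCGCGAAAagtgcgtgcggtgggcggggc
Mcm7, chr5:138172031-138172058, minus strand: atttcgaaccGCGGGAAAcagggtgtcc
Cdc6, chr11:98907988-98908045, plus strand: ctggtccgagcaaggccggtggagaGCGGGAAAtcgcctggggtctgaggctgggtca
Orc1, chr4:108579417-108579444, plus strand: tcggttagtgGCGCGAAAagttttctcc
Pola1, chrX:93632261-93632318, minus strand: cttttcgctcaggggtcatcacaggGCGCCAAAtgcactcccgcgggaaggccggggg
Gins3, chr8:95633508-95633535, plus strand: cgagtgcggcGCGGGAAAgcgagtttga
Rrm2, chr12:24708121-24708240, plus strand: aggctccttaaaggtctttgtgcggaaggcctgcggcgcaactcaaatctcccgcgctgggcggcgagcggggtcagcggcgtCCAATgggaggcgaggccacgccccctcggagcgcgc
Tk1, chr11:117826093-117826212, minus strand: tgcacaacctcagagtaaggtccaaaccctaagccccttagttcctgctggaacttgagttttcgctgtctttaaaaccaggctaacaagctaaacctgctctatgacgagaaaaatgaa
In Mcm5 the octamers began 153 and 149 bases before the start and overlapped by 4 bases on opposite strands, and Mcm6 held a run of the same kind 110 and 106 bases before its start with a further octamer at 47. Mcm7 held a further octamer after its start, which is not shown. The windows of Rrm2 and Tk1 held no E2F octamer, and the Tk1 window no CCAAT. The Rrm2 stretch shown ran from 133 to 14 bases before the start. The Tk1 stretch ran from 198 to 79, so the bases nearest the Tk1 start are not shown. The Mcm7 and Gins3 stretches lay within annotated exons over all 28 bases shown, the Orc1 stretch over 22 bases, and the others outside annotated exons. The 13 genes with an octamer had a median log2 fold change of -0.55 in osteocytes against MSCs under vehicle and -0.51 with FG-4592 in osteocytes, next to -0.56 and -0.49 for the 23 without one. A match to these letters is a description of the window and not a measured binding site.

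Across the 4 conditions the replication genes were highest in vehicle-treated MSCs and lowest in FG-4592-treated osteocytes. FG-4592-treated osteocytes had the lowest mean of the 4 groups for 38 of the 43 genes, against 26.9% of all genes tested, and vehicle-treated MSCs the highest mean for 33, against 26.6%. For 28 genes all 3 FG-4592-treated osteocyte libraries lay below the other 9 (11.2% of all genes), and the means of 23 genes stepped down from MSCs on vehicle through MSCs on FG-4592 and osteocytes on vehicle to osteocytes on FG-4592 (9.96% of all genes). The 43 genes together held 0.216% ± 0.00475 (SD, n = 3) of counts in MSCs on vehicle and 0.196% ± 0.00652 on FG-4592. In osteocytes the shares were 0.128% ± 0.0058 and 0.092% ± 0.00658, and no libraries of different groups overlapped in this share. Markers of dividing cells moved alongside: Mki67, Top2a, Ccna2, Ccnb1, Cdk1 and Birc5 summed to 770 to 784, 476 to 587, 395 to 469 and 125 to 205 CPM in the same order of groups, and their part in the result was not tested.

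**Figure D1:**
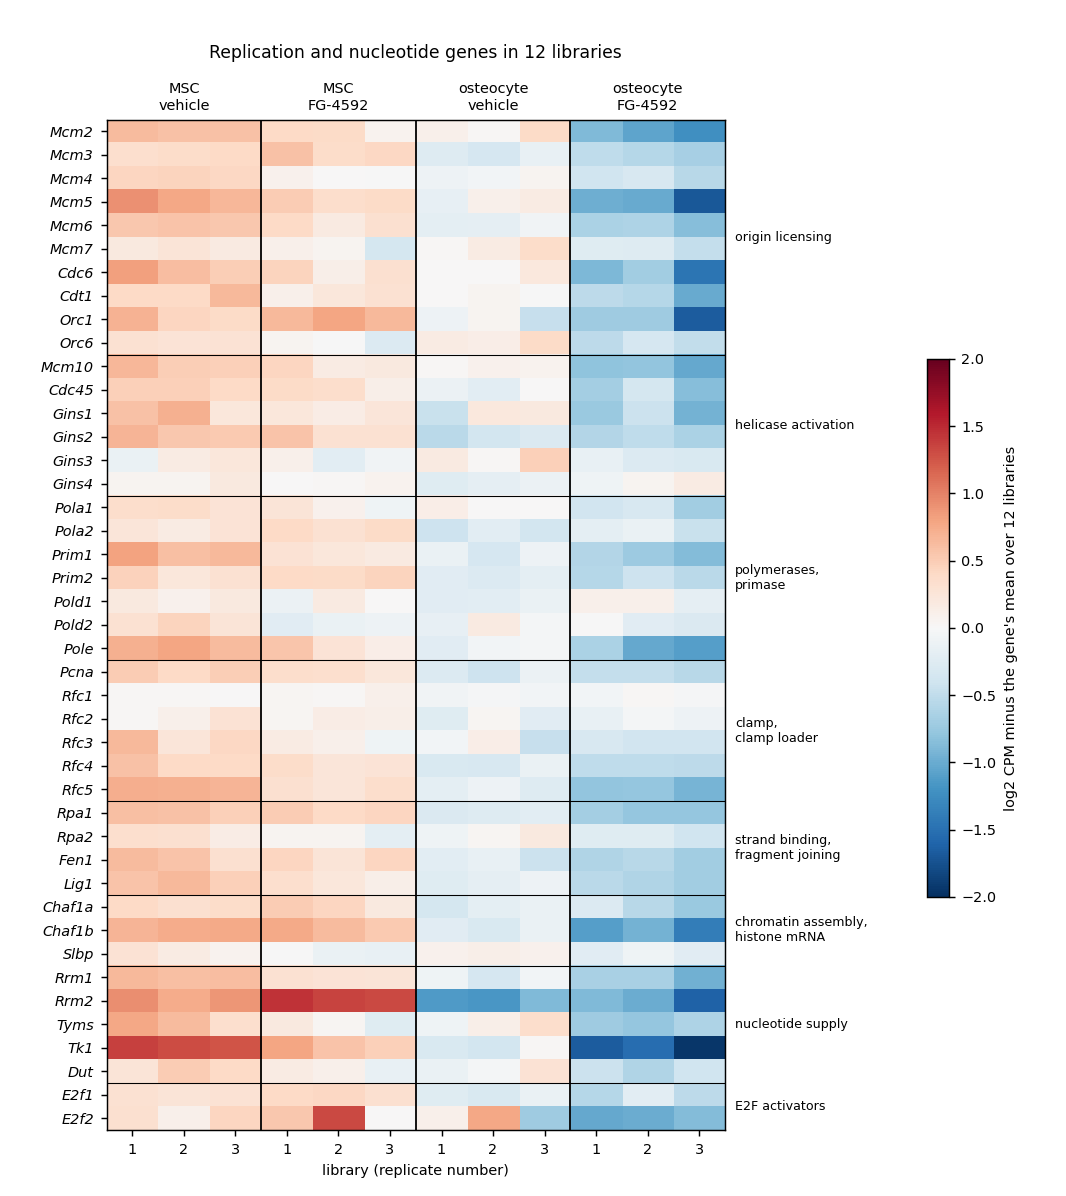
Level of the 43 genes (vertical axis, in role groups) in each of 12 libraries (horizontal axis), drawn as log2 CPM minus the gene's own mean over all libraries. The 3 FG-4592-treated osteocyte columns are the bluest for most genes, Rrm2 is highest in FG-4592-treated MSCs, and Rfc1 hardly varies.

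In osteocytes against MSCs under vehicle, 36 of the 43 genes were lower and 0 higher at a false discovery rate (FDR) below 0.05 by edgeR's quasi-likelihood test with Benjamini-Hochberg correction across the whole table, against 24.9% lower and 26.0% higher among all genes. Rrm2 and Tk1 were the 2 that also passed the study's second cutoff, a log2 fold change beyond 1 (6.08% of all genes were lower by both cutoffs). The median log2 fold change of the 43 genes was -0.56, next to -0.01 over all genes tested. Under FG-4592 the same comparison gave 35 lower and 0 higher genes (25.3% and 30.5% of all genes), of which 15 passed both cutoffs (5.64%), and a median of -0.90, next to 0.03. The 15 became 12 to 18 with 1 library left out, and Mcm3, Mcm6 and Rrm1 were lost without FG-4592 replicate 3 of the osteocytes. The vehicle libraries of the cell types did not overlap for 34 of the 43 genes and the FG-4592 libraries for 37, whereas 56.9% and 64.1% of all genes did not overlap. Leaving out 1 library took 10 of the 36 genes out of the threshold under vehicle (Cdc6, Cdt1, Orc1, Gins1, Gins4, Pola1, Pold2, Rfc2, Tyms and Dut), with FDR between 0.05 and 0.244, and Rfc3 and Rpa2 under FG-4592.

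**Figure D2:**
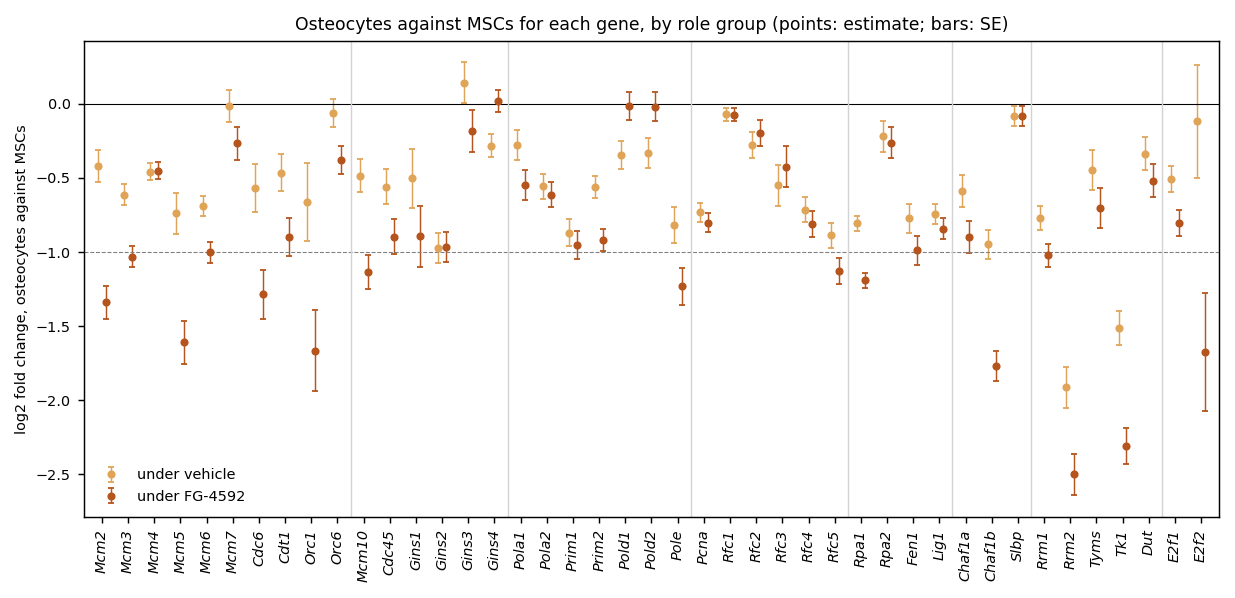
Log2 fold change of osteocytes against MSCs (vertical axis) for each gene (horizontal axis, role groups parted by grey lines) under vehicle and under FG-4592, with SE bars and a dashed line at -1. Rrm2 and Tk1 lie lowest under both treatments, and Mcm2, Mcm5, Orc1, Chaf1b and E2f2 lie much lower under FG-4592 than under vehicle.

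With FG-4592 in MSCs, 17 genes were lower and 1, Rrm2, was higher (20.4% and 17.6% of all genes), none passed both cutoffs (5.17% of all genes did so as lower), and the median was -0.24, next to -0.05. By unadjusted p under 0.05, 23 were lower and 1 higher, but the share of all genes at that unadjusted threshold was not counted. DESeq2 likewise called none by both cutoffs. The count of 17 fell to 11 without vehicle replicate 2 of the MSCs and also to 11 without FG-4592 replicate 3 of the MSCs, and the calls of Mcm2, Mcm5, Mcm6, Pole, Rfc3, Rpa2 and Dut were lost without some 1 library. In osteocytes FG-4592 lowered 33 genes and raised 1, Gins4 (22.0% and 21.9% of all genes), with 5 genes lower by both cutoffs (Mcm2, Mcm5, Cdc6, Tk1 and E2f2, against 4.26% of all genes) and a median of -0.49, next to 0.00. Replicate 3 of the FG-4592-treated osteocytes was the lowest of its group for 33 of the 43 genes, against 35% of all genes, and without it 29 genes were lower, 3 passed both cutoffs (Mcm2, Mcm5 and Tk1) and the median was -0.40. The calls of Orc1, Gins3, Gins4, Rfc4, Rpa2, Chaf1a and E2f2 with FG-4592 in osteocytes were lost without some 1 library. Libraries of the treatments did not overlap for 29 genes in MSCs and 32 in osteocytes, against 50.5% and 51.8% of all genes.

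Among the licensing genes, 8 of 10 were lower in osteocytes under vehicle and all 10 fell with FG-4592 in osteocytes, against 5 of 10 in MSCs. In these comparisons 24.9%, 22.0% and 20.4% of all genes were lower. The difference between the FG-4592 responses of the cell types passed the test for 5 of the 10. Mcm5, a subunit of the MCM helicase, was at 43.3, 39.4 and 36.4 CPM in MSCs on vehicle and 32.9, 29.5 and 30.00 on FG-4592. In osteocytes Mcm5 was at 20.7, 24.8 and 26 CPM on vehicle and 11.7, 11.4 and 7.12 on FG-4592. No 2 groups overlapped, and the FG-4592-treated osteocytes lay far below the rest. The log2 fold change of Mcm5 was -0.74 ± 0.138 (SE) in osteocytes under vehicle (FDR = 3.02e-04), -1.24 ± 0.145 with FG-4592 in osteocytes (FDR = 3.08e-06) and -0.37 ± 0.137 with FG-4592 in MSCs (FDR = 0.0449, and from 0.0529 to 0.196 without any 1 of the 6 MSC libraries). Mcm2, another subunit, was at 44.3, 42.9 and 43.2 CPM in MSCs on vehicle and 38, 37.3 and 30.2 on FG-4592. In osteocytes Mcm2 was at 30.8, 29.3 and 37.5 CPM on vehicle and 15.6, 13.8 and 12.3 on FG-4592. Its vehicle-treated osteocytes overlapped the FG-4592-treated MSCs, and its FG-4592-treated osteocytes stood 2.34-fold below vehicle (log2 fold change -1.23 ± 0.109, FDR = 1.38e-07). In MSCs the Mcm2 difference was -0.31 on the log2 scale (FDR = 0.0299), which missed the threshold without any 1 of the 3 vehicle libraries or FG-4592 replicate 3 (FDR up to 0.151).

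Of the 6 subunits of the MCM helicase, 5 were lower in osteocytes under vehicle (24.9% of all genes were lower) and Mcm7 did not pass. Mcm7 was at 35.9, 37.5 and 35.5 CPM in MSCs on vehicle and 33.6, 32.8 and 24.6 on FG-4592. In osteocytes Mcm7 was at 31.9, 35.2 and 40.7 CPM on vehicle and 26.6, 26.4 and 22.6 on FG-4592. The vehicle groups overlapped, and the cell types did not pass the test under vehicle (log2 fold change -0.01 ± 0.111, FDR = 0.929). Under FG-4592 the log2 fold change of Mcm7 between the cell types was -0.27 (FDR = 0.0534). It passed as lower in osteocytes under 11 alternative settings, among them RLE and upper-quartile scaling and DESeq2. With FG-4592 in osteocytes the log2 fold changes of the subunits were -1.23 for Mcm2, -0.33 for Mcm3, -0.39 for Mcm4, -1.24 for Mcm5, -0.55 for Mcm6 and -0.51 for Mcm7, all past the FDR threshold. Cdc6, the ATPase that loads the helicase, had means of 9.74 ± 1.16 CPM (SD, n = 3) and 7.69 ± 0.869 CPM in MSCs on vehicle and FG-4592, and of 6.56 ± 0.527 and 3.15 ± 0.813 CPM in osteocytes. It fell by 1.06 on the log2 scale with FG-4592 in osteocytes (FDR = 7.70e-05), with no overlap between the osteocyte groups. Orc1, the largest subunit of the origin recognition complex, held 25 to 153 counts per library. The FG-4592 response of Orc1 was -0.81 ± 0.278 in osteocytes (FDR = 0.0260, 0.0785 without vehicle replicate 2 and 0.122 without FG-4592 replicate 3), and 0.19 ± 0.257 in MSCs (FDR = 0.606). Orc6 and Cdt1, the latter the partner of Cdc6 in loading, also fell with FG-4592 in osteocytes, by 0.68 and 0.71 on the log2 scale.

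Of the 6 helicase activation genes, 5 were lower in osteocytes under vehicle, 4 fell with FG-4592 in osteocytes and 0 passed the test with FG-4592 in MSCs. In these comparisons 24.9%, 22.0% and 20.4% of all genes were lower. All 6 values in MSCs were below 0, with log2 fold changes from -0.32 to -0.07. Mcm10 (FDR = 0.059 in MSCs) passed with library size alone, with upper-quartile factors and without FG-4592 replicate 1 of the MSCs. Gins2 passed there with library size alone. Gins2 was at 19.1, 17.2 and 17.1 CPM in MSCs on vehicle and 17.6, 14.8 and 14.7 on FG-4592. In osteocytes Gins2 was at 8.19, 9.28 and 9.81 CPM on vehicle and 7.97, 8.42 and 7.69 on FG-4592. Both osteocyte groups lay below both MSC groups (log2 fold change -0.97 ± 0.0999 under vehicle, FDR = 5.90e-07) and the treatments overlapped within each cell type. Gins3 was at 5.96, 7.30 and 7.64 CPM in MSCs on vehicle and 6.96, 5.63 and 6.20 on FG-4592. In osteocytes Gins3 was at 7.36, 6.65 and 9.04 CPM on vehicle and 5.87, 5.40 and 5.27 on FG-4592. The FG-4592-treated osteocytes lay below both vehicle groups but overlapped the FG-4592-treated MSCs. Gins3 fell with FG-4592 in osteocytes (-0.48 ± 0.139, FDR = 0.0102, and 0.0616 without vehicle replicate 3). Mcm10, which holds the active helicase at the fork, was at 10.9, 9.64 and 9.54 CPM in MSCs on vehicle and 9.25, 7.69 and 7.87 on FG-4592. In osteocytes Mcm10 was at 6.99, 7.28 and 7.24 CPM on vehicle and 3.93, 3.97 and 3.38 on FG-4592. None of the Mcm10 groups overlapped, and the gene fell by 0.93 on the log2 scale with FG-4592 in osteocytes (FDR = 6.36e-06). Gins4 moved the other way, with 19.96 ± 0.864 CPM (SD, n = 3) in vehicle-treated osteocytes and 23.4 ± 1.96 CPM with FG-4592 (log2 fold change 0.23 ± 0.0763, FDR = 0.0222), and this did not pass without any of 4 of the 6 osteocyte libraries (FDR up to 0.115) or with library size alone as the scale (FDR = 0.189). Cdc45, the helicase partner of GINS, fell by 0.51 with FG-4592 in osteocytes. The 4 GINS subunits, which form 1 complex, had log2 fold changes with FG-4592 in osteocytes from -0.71 for Gins1 to 0.23 for Gins4.

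All 7 polymerase and primase genes were lower in osteocytes under vehicle (24.9% of all genes were lower), with log2 fold changes from -0.87 to -0.28. Under FG-4592, 5 of the 7 were lower (25.3% of all genes). Prim1, the catalytic subunit of primase, was at 27.4, 23.7 and 24.4 CPM in MSCs on vehicle and 19.1, 18.3 and 17.7 on FG-4592. In osteocytes Prim1 was at 14.3, 12.4 and 14.6 CPM on vehicle and 10.5, 9.47 and 8.57 on FG-4592. The 4 groups were separate, with log2 fold changes of -0.45 in MSCs and -0.53 in osteocytes with FG-4592 (FDR = 8.69e-04 and 2.27e-04). Pole, the catalytic subunit of the leading strand polymerase, was at 21, 22.2 and 19.99 CPM in MSCs on vehicle and 18.9, 15.6 and 14.2 on FG-4592. In osteocytes Pole was at 10.9, 12.4 and 12.5 CPM on vehicle and 8.27, 6.34 and 6.03 on FG-4592. Its groups were likewise separate, and it was 2.35-fold lower in osteocytes than in MSCs under FG-4592 (log2 fold change -1.23 ± 0.127, FDR = 4.31e-07). Pola1, the catalytic subunit of polymerase alpha, was at 33, 33.4 and 31.4 CPM in MSCs on vehicle and 31.1, 27.6 and 24.3 on FG-4592. In osteocytes Pola1 was at 28.4, 26.1 and 26.1 CPM on vehicle and 19.9, 20.9 and 16 on FG-4592. The vehicle-treated osteocytes lay inside the range of the FG-4592-treated MSCs. The lagging strand polymerase genes Pold1 and Pold2 did not pass the test with FG-4592 in osteocytes (log2 fold changes 0.20 and -0.17, FDR = 0.102 and 0.179) and nor did Pola2 (0.08, FDR = 0.504). Without FG-4592 replicate 3 Pold1 passed as higher (0.29, FDR = 0.0236), and Pold2 passed as lower with library size alone as the scale and without vehicle replicate 1 (-0.27 in the latter).

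Pcna and most clamp loader genes were lower in osteocytes, but Rfc1, the loader's large subunit, did not pass the test. Pcna, the sliding clamp, was at 164, 152 and 163 CPM in MSCs on vehicle and 147, 146 and 135 on FG-4592. In osteocytes Pcna was at 95.1, 86.9 and 106 CPM on vehicle and 83.3, 82.7 and 78.9 on FG-4592. The 4 Pcna groups did not overlap. Its log2 fold change was -0.73 ± 0.0643 in osteocytes against MSCs under vehicle (FDR = 9.16e-08), against -0.23 ± 0.0644 with FG-4592 in osteocytes (FDR = 0.00734) and -0.16 ± 0.0637 in MSCs (FDR = 0.0556). The difference in MSCs passed under 5 other settings (library size alone, upper-quartile factors, no filter, only the libraries compared, and without vehicle replicate 3 of the osteocytes), with FDR down to 0.00414. Rfc1, the large subunit of the loader, was at 86.6, 86.3 and 85.3 CPM in MSCs on vehicle and 87, 86.8 and 91.7 on FG-4592. In osteocytes Rfc1 was at 80.7, 83.3 and 81.7 CPM on vehicle and 82.2, 86.5 and 83.3 on FG-4592. No comparison of Rfc1 passed the test, with log2 fold changes between -0.07 and 0.04 and standard errors of at most 0.0441, except that with library size alone it passed as lower in osteocytes under FG-4592 (FDR = 0.0267). Rfc5, a small subunit, was at 17.8, 17.5 and 17.2 CPM in MSCs on vehicle and 13.3, 12.7 and 13.7 on FG-4592. In osteocytes Rfc5 was at 9.41, 10.03 and 8.99 CPM on vehicle and 6.24, 6.29 and 5.61 on FG-4592. Its groups did not overlap, with a log2 fold change of -1.13 ± 0.0873 in osteocytes under FG-4592 (FDR = 1.47e-08). Rfc2, Rfc3 and Rfc4, the other small subunits, had log2 fold changes of -0.28, -0.55 and -0.71 in osteocytes under vehicle, and all passed. Over the 6 genes, 5 were lower in osteocytes under vehicle and 3 fell with FG-4592 in osteocytes (24.9% and 22.0% of all genes).

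Rpa1, the large subunit of the complex that coats single-stranded DNA, was at 211, 208 and 194 CPM in MSCs on vehicle and 198, 184 and 187 on FG-4592. In osteocytes Rpa1 was at 114, 117 and 119.7 CPM on vehicle and 87, 81.2 and 81.2 on FG-4592. Its MSC groups overlapped, its osteocyte groups did not, and its log2 fold change was -0.81 ± 0.0501 in osteocytes under vehicle (FDR = 1.32e-09) and -0.49 ± 0.0503 with FG-4592 in osteocytes (FDR = 7.13e-07). Rpa2, its partner, was at 14.6, 14.3 and 12.8 CPM in MSCs on vehicle and 11.9, 12 and 10.1 on FG-4592. In osteocytes Rpa2 was at 10.8, 11.8 and 13.2 CPM on vehicle and 9.78, 9.78 and 8.73 on FG-4592. The vehicle-treated MSCs and osteocytes overlapped for Rpa2, and the difference of -0.22 ± 0.103 did not pass (FDR = 0.0875), although it did with library size alone and without vehicle replicate 3 of the osteocytes (FDR = 0.0378 in the latter). Fen1 and Lig1, which trim and join Okazaki fragments, fell by 0.77 and 0.74 on the log2 scale in osteocytes under vehicle. Fen1 shares 84.2% of its exonic bases with genes on the opposite strand, mostly Gm10143, which held 0 to 16 counts per library against 635 to 1496 for Fen1. The other, Tmem258, shares 130 bases and held 1095 to 2356 counts.

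Chaf1b, a subunit of the assembly factor that places histones on new DNA, was at 27.5, 28.8 and 29.2 CPM in MSCs on vehicle and 29.2, 26.6 and 24.7 on FG-4592. In osteocytes Chaf1b was at 14.7, 14 and 15.7 CPM on vehicle and 8.07, 8.96 and 6.60 on FG-4592. The MSC groups overlapped and the FG-4592-treated osteocytes lay well below the vehicle-treated ones, with log2 fold changes of -0.09 ± 0.0964 in MSCs (FDR = 0.527) and -0.91 ± 0.102 in osteocytes (FDR = 2.11e-06). Slbp, which binds the stem loop of histone mRNA, was at 51.4, 46.8 and 43.9 CPM in MSCs on vehicle and 41.5, 38.2 and 37.9 on FG-4592. In osteocytes Slbp was at 44.3, 45.4 and 44.5 CPM on vehicle and 35.9, 39.2 and 35.8 on FG-4592. Chaf1a, the partner of Chaf1b, fell by 0.29 with FG-4592 in osteocytes (FDR = 0.0421), but the call was lost without any of 5 single libraries (FDR up to 0.202) and the value was -0.18 without FG-4592 replicate 3 of the osteocytes. Slbp fell by 0.27 on the log2 scale with FG-4592 in both cell types (FDR = 0.00358 in MSCs and 0.00288 in osteocytes) and did not pass the test between the cell types (FDR = 0.323 under vehicle).

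**Figure D3:**
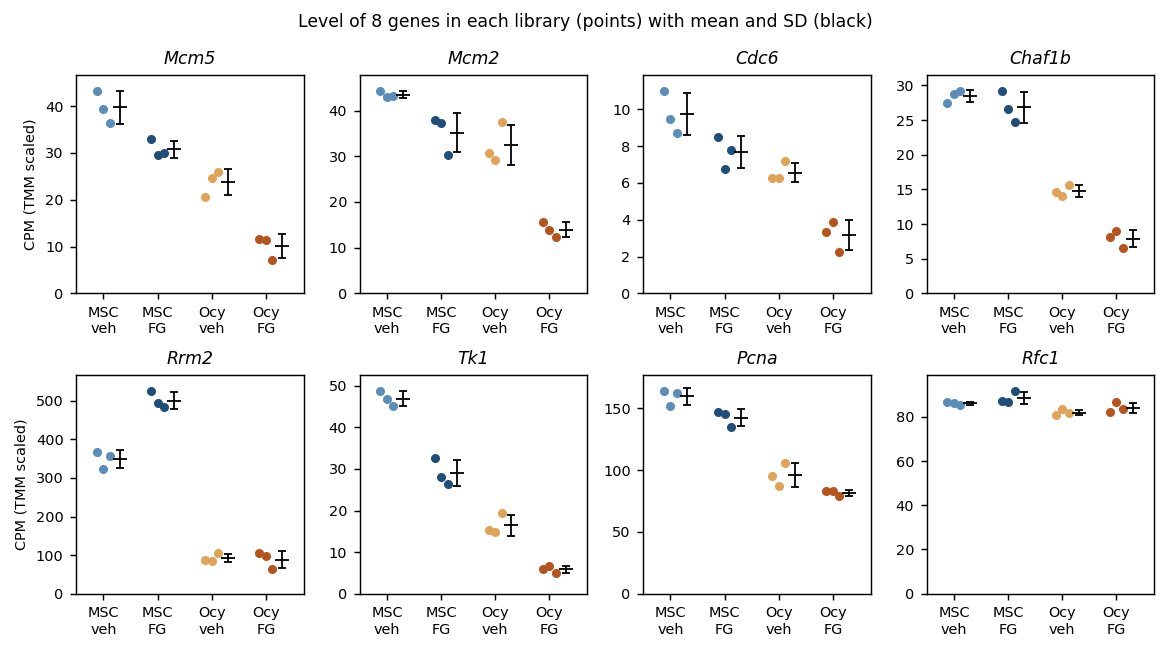
CPM (vertical axis, from 0) of 8 genes in each library of the 4 groups (points), with the group mean and SD in black (Ocy: osteocytes; veh: vehicle; FG: FG-4592). Mcm5, Cdc6, Tk1 and Pcna step down from MSCs with vehicle to osteocytes with FG-4592, Rrm2 rises with FG-4592 in MSCs, and Rfc1 stays between 80.7 and 91.7 CPM.

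All 5 nucleotide supply genes were lower in osteocytes under both treatments (24.9% of all genes under vehicle and 25.3% under FG-4592). With FG-4592 in MSCs 4 fell and Rrm2 rose (20.4% and 17.6% of all genes). Rrm2, the S-phase subunit of ribonucleotide reductase, was at 366, 323 and 358 CPM in MSCs on vehicle and 525, 494 and 483 on FG-4592. In osteocytes Rrm2 was at 87.7, 85.8 and 105 CPM on vehicle and 105, 97.5 and 63 on FG-4592. All MSC libraries lay above all osteocyte libraries, the FG-4592-treated MSCs lay above the vehicle-treated ones, and the osteocyte groups overlapped. Rrm2 was 3.76-fold lower in osteocytes under vehicle (log2 fold change -1.91 ± 0.137, FDR = 7.32e-09) and 5.65-fold lower under FG-4592, and was the 1 member that rose with FG-4592 in MSCs (0.52 ± 0.132, FDR = 0.00479). In osteocytes the treatment gave Rrm2 a log2 fold change of -0.07 ± 0.133 (FDR = 0.733). Tk1, the thymidine kinase of S phase, was at 48.7, 46.9 and 45.1 CPM in MSCs on vehicle and 32.6, 28 and 26.5 on FG-4592. In osteocytes Tk1 was at 15.3, 14.8 and 19.3 CPM on vehicle and 6.00, 6.62 and 4.94 on FG-4592. Its 4 groups were separate. It fell with FG-4592 in both cell types, by 0.69 on the log2 scale in MSCs (FDR = 1.04e-04) and by 1.49 in osteocytes (FDR = 4.77e-08), and was 4.96-fold lower in osteocytes than in MSCs under FG-4592. Dut, which removes dUTP, was at 28.6, 34 and 31.5 CPM in MSCs on vehicle and 26.8, 25.7 and 21.6 on FG-4592. In osteocytes Dut was at 21.9, 23.4 and 29.3 CPM on vehicle and 17.8, 15.7 and 18.1 on FG-4592. Its vehicle-treated osteocytes overlapped the other groups except for the FG-4592-treated osteocytes. Rrm1, the large reductase subunit, fell by 0.34 with FG-4592 in MSCs, where Rrm2 rose, and by 0.59 in osteocytes. Tyms, thymidylate synthase, fell by 0.58 and 0.83 on the log2 scale with FG-4592 in MSCs and osteocytes.

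Of 5 related genes that also work outside S phase, 1 was higher and 2 lower in osteocytes under vehicle (26.0% and 24.9% of all genes), and 4 were higher and 1 lower under FG-4592 (30.5% and 25.3%). Per exonic length the ratio of Rrm2 to Rrm2b, the subunit used by resting cells, was 35.4 ± 2.38 (SD, n = 3) in MSCs on vehicle and 55.5 ± 6.91 on FG-4592, and 7.12 ± 1.03 and 6.17 ± 1.63 in osteocytes. Rrm2b itself was higher in osteocytes under vehicle, with a log2 fold change of 0.41 ± 0.0733 (FDR = 2.20e-04). On the same scale Tk1 stood at 1.36 ± 0.167 times the mitochondrial kinase Tk2 in MSCs on vehicle and 0.87 ± 0.105 on FG-4592, and 0.547 ± 0.0698 and 0.147 ± 0.0279 in osteocytes. Among these 5 genes, Tk2, Dck and Samhd1, a deoxynucleotide hydrolase, rose with FG-4592 in osteocytes (log2 fold changes 0.41, 0.32 and 0.68) and 0 fell, next to 21.9% and 22.0% of all genes. The ratio of Rrm2 to Rrm1 per length was 7.98 ± 0.424 and 14.5 ± 0.405 in MSCs under vehicle and FG-4592, and 3.62 ± 0.314 and 5.15 ± 0.757 in osteocytes.

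**Figure D4:**
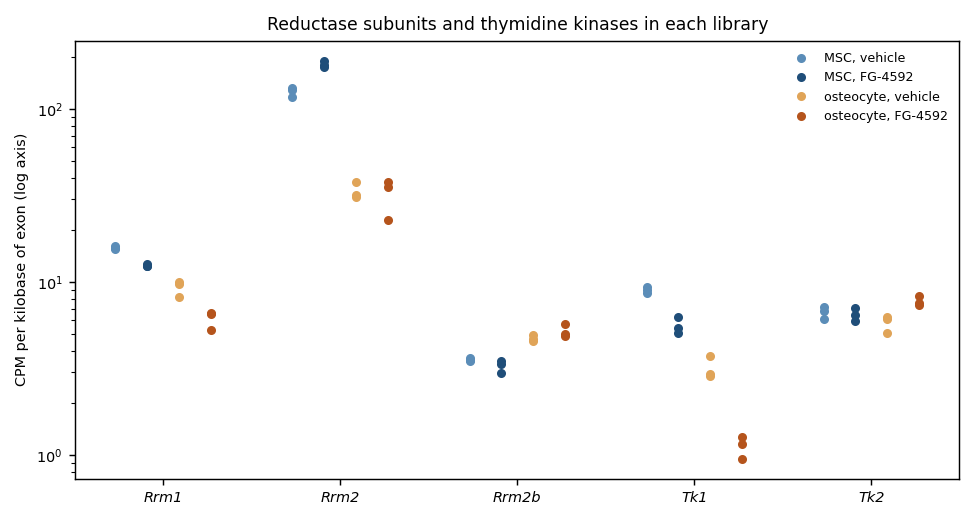
Level per exonic length (vertical axis, CPM per kilobase of exon, log axis) of 3 reductase subunits and 2 thymidine kinases in each of the 12 libraries. Rrm2 and Tk1 are lower in all osteocyte libraries than in all MSC libraries, whereas Rrm2b is higher.

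Of the E2F activators, which switch on many of the genes above, E2f1 was lower in osteocytes under both treatments and E2f2 under FG-4592. E2f1 was at 32, 31 and 31.9 CPM in MSCs on vehicle and 34.2, 34.5 and 32.4 on FG-4592. In osteocytes E2f1 was at 21.9, 21.1 and 23.6 CPM on vehicle and 17.5, 22.3 and 18.1 on FG-4592. All osteocyte libraries lay below all MSC libraries (log2 fold change -0.51 ± 0.0849 under vehicle, FDR = 1.06e-04). With FG-4592 E2f1 did not pass the test in MSCs (0.09 ± 0.0839, FDR = 0.425) or in osteocytes (-0.20 ± 0.0857, FDR = 0.0658). In osteocytes E2f1 did pass under 6 other settings, namely RLE, library size and upper-quartile scaling, DESeq2, and without vehicle replicate 2 or FG-4592 replicate 2 (log2 fold change -0.32 and FDR = 0.00308 in the last). E2f2 was at 1.09, 0.935 and 1.18 CPM in MSCs on vehicle and 1.27, 2.17 and 0.875 on FG-4592. In osteocytes E2f2 was at 0.934, 1.49 and 0.537 CPM on vehicle and 0.431, 0.442 and 0.479 on FG-4592. These are 27 to 146 counts per library. The groups overlapped except that the FG-4592-treated osteocytes lay below all others, and the fall of 1.12 on the log2 scale in osteocytes (FDR = 0.0326) was lost without vehicle replicate 2 (FDR = 0.181) or without any 1 of the FG-4592 libraries (FDR from 0.0644 to 0.0857).

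The log2 fold change with FG-4592 was lower in osteocytes than in MSCs for 11 genes and higher for 0, by the interaction term of the same model (11.0% and 13.3% of all genes were lower and higher). These were Mcm2, Mcm3, Mcm5, Mcm6, Cdc6, Mcm10, Prim2, Rpa1, Chaf1b, Rrm2 and Tk1, and they include 5 of the 10 licensing genes and 0 of the 6 clamp and loader genes. The difference of the log2 fold changes was -0.92 ± 0.151 (SE) for Mcm2 (FDR = 3.23e-04), -0.87 ± 0.198 for Mcm5 (FDR = 0.00424), -0.82 ± 0.141 for Chaf1b (FDR = 4.63e-04), -0.80 ± 0.163 for Tk1 (FDR = 0.00190) and -0.38 ± 0.0706 for Rpa1 (FDR = 8.24e-04). None of the 43 passed the added cutoff of 1 (1.07% of all genes were lower by both), while DESeq2 gave 2, Orc1 and E2f2. By unadjusted p under 0.05, 18 were lower and 3 higher, with the share of all genes again not counted. The difference was -1.56 for E2f2 (FDR = 0.0508), the furthest from 0 of the 43, and -1.0 for Orc1 (FDR = 0.0661). E2f2 passed under 7 other settings, 5 of scaling, tool or filter and 2 that left out 1 library (FG-4592 replicate 3 of the MSCs or vehicle replicate 3 of the osteocytes). The Rrm2 difference of -0.59 ± 0.187 (FDR = 0.0312) set the rise in MSCs against -0.07 in osteocytes, and missed the threshold without vehicle replicate 2 of the MSCs, FG-4592 replicate 1 or 2 of the MSCs or vehicle replicate 3 of the osteocytes (FDR up to 0.0824). Over all alternative settings the osteocyte value of Rrm2 ran from -0.21 to 0.13 and the difference from -0.74 to -0.39. Cdc6 and Mcm6 were also lost when any of 6 and 4 libraries were left out singly, with FDR up to 0.0803 and 0.0726, and Prim2 was lost with no filter on low counts (FDR = 0.0597).

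**Figure D5:**
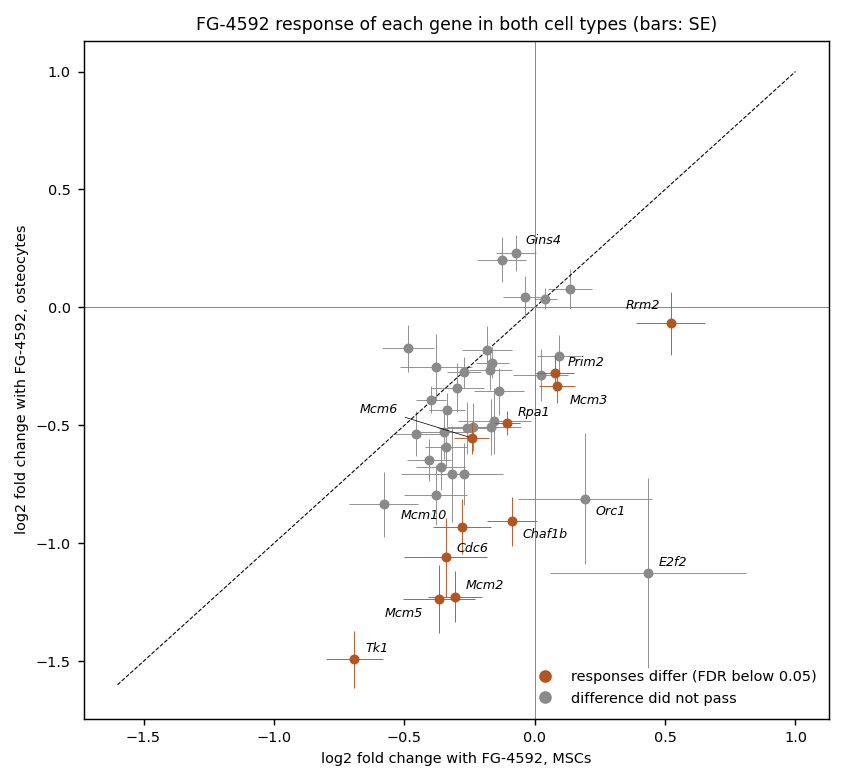
Log2 fold change with FG-4592 in MSCs (horizontal axis) and in osteocytes (vertical axis) for the 43 genes, with SE bars and a dashed line where the responses are equal. The 11 coloured genes, whose responses differ by the interaction test, all lie below the line, and Rrm2 is the one to the right of 0.5.

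Of 76 other genes of the pathway, 74 passed the filter. In osteocytes against MSCs 32 (43.2%) were lower and 9 (12.2%) higher under vehicle, next to 24.9% and 26.0% of all genes. Under FG-4592 45 (60.8%) were lower and 11 (14.9%) higher, next to 25.3% and 30.5%. With FG-4592 in osteocytes 40 (54.1%) were lower and 11 (14.9%) higher, next to 22.0% and 21.9%. In MSCs 14 (18.9%) were lower and 9 (12.2%) higher, which is no more than the 20.4% and 17.6% of all genes. Dbf4, the activator of the kinase that fires origins, fell by 1.15 on the log2 scale with FG-4592 in osteocytes (FDR = 1.09e-07), and its licensing and firing list had 8 of 13 genes lower and 1 higher. Of Pold3, Pole2, Pole3, Pole4 and Rpa3, small subunits of the polymerases and of the single-strand binding complex, 0 fell and 1 rose, Pold3, with a log2 fold change of 0.48. All 7 other chromatin replication genes fell with FG-4592 in osteocytes, from -1.31 for Uhrf1, which guides DNA methylation to new strands, to -0.16 for Rbbp4. Of 14 genes of de novo purine and pyrimidine synthesis, 9 fell and 2 rose, and Ctps, which makes CTP, fell by 1.19 (FDR = 5.09e-08). Of the 11 other E2F and pocket protein genes, 5 were lower and 2 higher in osteocytes against MSCs under vehicle (24.9% and 26.0% of all genes). Under FG-4592, 8 were lower and 2 higher (25.3% and 30.5%). The repressors E2f7 and E2f8 had log2 fold changes of -2.28 and -1.07 in osteocytes against MSCs under FG-4592. Rb1 and Rbl2 were higher in osteocytes than in MSCs under vehicle (0.88 and 0.34).

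Exonic bases were shared with a neighbour for 15 of the 43 genes, and the share was over 10% for 8 of them. Pairs were counted for every gene they overlapped, and the counting options name no strand setting. The partners of Fen1 and Rfc2 over most of the shared bases, Gm10143 and Lat2, held at most 16 and 48 counts, although 1909 and 952 bases were shared. Fen1 shared a further 130 bases with Tmem258 (1095 to 2356 counts, against 635 to 1496 for Fen1). Gins2 shared 67.3% of its bases with Gse1 (1870 to 3313 counts per library) and Chaf1a 52.5% with Ubxn6 (2754 to 3859 counts), both on the opposite strand. Orc1 shared 10.8% with Gm12743 (53 to 157 counts). Rfc4 shared 12.7% with Eif4a2 (11038 to 38798 counts, against 596 to 1187 for Rfc4), Rfc5 10.7% with Wsb2 (4263 to 7614 counts, against 340 to 1096 for Rfc5) and Mcm7 12.6%, mainly with Ap4m1 (1011 to 2062 counts). Among genes with a share below 10%, Orc6 shared 171 bases with Vps35 (12484 to 19248 counts, against 836 to 1560 for Orc6). Cdc45 shared 209 bases with Ufd1 (3882 to 5832 counts, against 397 to 1010 for Cdc45). How far the pairs of these partners entered the counts of the genes named here was not tested. Processed pseudogenes at least 95% identical over at least 400 bases were annotated for 7 genes (Cdc6, Mcm7, Pcna, Rfc5, Rrm2, Slbp and Tyms). Their counts reached at most 76 in any library (Pcna-ps2), and at most 2.03% of the count of the parent gene (Tyms).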

How the data were processed

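RNA-seq libraries of MPC2 cells (4 groups of 3) were analysed from the gene counts that the authors deposited. The authors aligned paired 100-base reads to mm10 with STAR 2.7.2a and counted them per gene with featureCounts (Subread 1.6.2, minimum mapping quality 10, pairs assigned to every overlapping gene, no strand option named), per the study's methods and the submitters' processing notes, which both name edgeR for the analysis but differ in its version. Here genes whose count exceeded 10 in 3 or more libraries were fitted with TMM scaling and edgeR's quasi-likelihood test (edgeR 4.0.16, limma 3.58.1, R 4.3.3), 1 model over all 12 libraries with 8 residual degrees of freedom, with Benjamini-Hochberg adjustment over all 16484 genes. An FDR below 0.05 was the threshold, with an absolute log2 fold change above 1 as the second cutoff. DESeq2 1.42.0, other scalings, other filters, a replicate block and the omission of each library were alternatives. Exon overlaps between genes (GenomicRanges 1.54.1) came from the exon coordinates in the count table (Gencode M22), exons beside the printed promoters and pseudogenes from Gencode M21, and pseudogene copies were found with BLAST+ 2.17.0. Values in every library are given for the members of each role group with the largest and smallest difference between cell types under vehicle and the largest FG-4592 response, and for Pcna, Mcm2, Rrm2 and E2f1. The members, lists and rule were chosen with earlier results of these data known. Replicate numbers were not used to pair the samples in the main model.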

Additional observations from a re-analysis of the deposited data

Results flagged for a closer look

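For 11 of the 43 genes the log2 fold change with FG-4592 differed between osteocytes and MSCs by the interaction term of edgeR's quasi-likelihood model (Benjamini-Hochberg FDR below 0.05). In either direction 4009 of the 16484 genes tested differed. All 11 were lower in osteocytes, next to 11.0% lower and 13.3% higher among all genes. The difference, osteocytes minus MSCs, was -0.92 for Mcm2, -0.42 for Mcm3, -0.87 for Mcm5, -0.31 for Mcm6, -0.72 for Cdc6 and -0.65 for Mcm10, which are genes of helicase subunits, helicase loading or helicase activation. It was -0.36 for Prim2, -0.38 for Rpa1, -0.82 for Chaf1b, -0.59 for Rrm2 and -0.80 for Tk1. Of these, Mcm6, Cdc6 and Rrm2 missed the threshold without some 1 library and Prim2 with no filter on low counts. In MSCs the log2 fold changes of Mcm3 and Prim2 were 0.08 and 0.08, next to -0.33 and -0.28 in osteocytes. Groups of 3 libraries were too small for the test of single outlying libraries.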

How the results depend on the processing

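Across 20 alternative settings for the 43 genes and 5 comparisons, 4047 of 4257 values kept their side of the threshold, 126 lost and 84 gained it. None of the values past the threshold in either setting reversed, but 78 values in 26 results that passed in neither changed sign. With FG-4592 in MSCs the count of lower genes was 17, and 26 with library size alone as the scale, which shifted the median of all genes by -0.09 (and by -0.10 in osteocytes), with 11 to 19 when 1 library was left out. The count of higher genes with FG-4592 in osteocytes, 1 (Gins4), was 0 with library size alone, with upper-quartile factors and with only the libraries compared, and 0 to 1 with 1 library left out. The genes past both cutoffs with FG-4592 in osteocytes (5) numbered 7 with library size alone, adding Mcm10 and Chaf1b, 4 with only the libraries compared, and 3 to 5 with 1 library left out. For the difference between responses, the genes past both cutoffs (0) numbered 1 with RLE size factors, with library size alone, with upper-quartile factors and with no filter, 2 with DESeq2, and 0 to 2 with 1 library left out. The count of genes with a higher difference (0) was 0 to 1 with 1 library left out. The labels share replicate numbers, but the 18 correlations between same-numbered libraries ran from -0.13 to 0.05, and 0 exceeded 0.1. Taken as deviations from means of 3 libraries, these cannot tell whether same-numbered libraries shared a culture or batch. With the replicate block that count of higher differences was 1, and the genes past the FDR threshold over all genes went from 8399 to 8189 for osteocytes against MSCs under vehicle. The cause of these changes was not tested. The lowest member count of 25 limits the precision for Orc1 and E2f2.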
